A study of Cunninghamia lanceolata with 18 samples.

Results

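The upper phloem (UP), the phloem of the main stem next to the apical bud, was compared with the lateral bud (LB) in clone C11 of Chinese fir (Cunninghamia lanceolata), a conifer grown for timber. Of the 18 libraries of the series, the 6 labelled UP or LB of C11 were used, 3 of each tissue, with every gene that passed a filter on low counts. The table held 46723 genes, of which 24235 passed in these libraries and 13773 had no counts in any of them. C11 is the clone with the shorter internodes and C1 the clone with the longer ones. In both clones UP, LB and the apical bud (AB) were taken from untreated trees of a clonal test forest when lateral buds first appeared. The study's methods put that day later after bud break in C11, whereas its results and discussion put lateral bud emergence later in C1. In either order the day differed between the clones, so clone and sampling day cannot be told apart in any comparison of them. The trees of a clone share 1 genotype, so the replicates stand for trees of C11 and not for other genotypes. UP and LB of C11 were the groups compared here, UP and LB of C1 served as separate libraries for the same tissue contrast, and AB of C11 is given beside some values.

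Phloem carries sugars and signals along the stem, and it holds sieve elements, companion cells, parenchyma and often fibres. A lateral bud holds a shoot meristem and young leaves whose surface is sealed by a cuticle of cutin and wax. Very-long-chain fatty acids (VLCFAs) are built in the endoplasmic reticulum by a cycle of condensation, reduction, dehydration and a second reduction, and they feed waxes, suberin and sphingolipids. Auxin, cytokinins, strigolactones and brassinosteroids move between stem and bud and act on bud outgrowth and stem elongation. Gene names used here are those the study gave to its identifiers, from matches in other species, and the roles named are mostly known from Arabidopsis or petunia. No marker of phloem, meristem or epidermis was paired with an identifier in the sources used here, so the tissue labels could not be checked against markers. Whole tissue was sequenced, so fewer cells of a type and less RNA per cell cannot be told apart in any value below.

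The UP libraries of C11 held 26796290 to 30564975 counts and the LB libraries 28267195 to 30134332. Between 27190 and 28395 genes had at least 1 count in a library. A single gene held at most 3.05% of a library, in UP replicate 3. On the first principal component of log2(CPM + 1), with CPM the library-scaled counts after TMM over all 18 libraries, replicate 3 of both tissues stood apart. This component held 41.8% of the variance, and replicate 3 lay at -157 (UP) and -94.3 (LB) against 34.6 to 86.8 for the other 4 libraries. UP and LB parted on the second component, with 21.8% of the variance, where UP lay between -0.70 and 87.7 and LB between -94.6 and -5.09. UP replicate 2 was the UP library nearest to the LB libraries on that axis. UP and LB libraries with the same number deviated together from the means of their tissues, with correlations over genes of 0.594, 0.399 and 0.578 for numbers 1, 2 and 3. The replicate number was therefore also used as a block in the fits below.

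**Figure D1:**
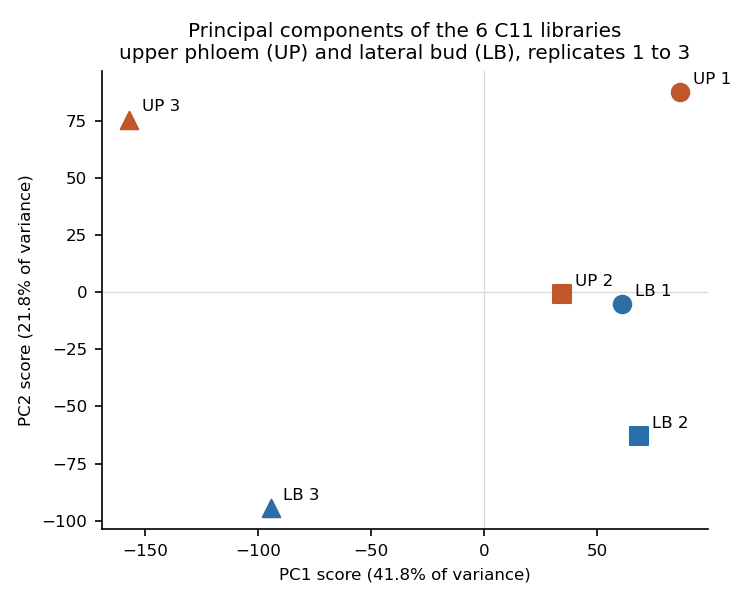
Scores of the 6 C11 libraries on PC1 (41.8% of the variance) and PC2 (21.8%), computed over 24235 scaled genes; colours mark the tissue and shapes the replicate number. Replicate 3 of both tissues lies below -94 on PC1, and all 3 UP libraries lie above all 3 LB libraries on PC2.

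Across all genes, no gene differed between UP and LB of C11 by at least 2-fold with a Benjamini-Hochberg adjusted p (FDR) under 0.05. With edgeR's quasi-likelihood test the smallest adjusted p was 0.465, and 1204 of 24235 genes (4.97%) had an unadjusted p under 0.05, 672 lower and 532 higher in UP. The replicate block also gave 0 calls with edgeR, at a smallest adjusted p of 0.125, and 2432 genes (10%) at an unadjusted p under 0.05. The biological coefficient of variation, the spread between replicates beyond counting noise, was 0.711 without the block and 0.48 with it, against 0.339 in the same contrast of C1. Other fits of the same libraries did make calls. DESeq2, the tool the study used, called 380 genes (1.39%), 272 lower (0.994%) and 108 higher (0.395%) in UP, and with the replicate block it called 1327 (5.09%), 867 lower (3.32%) and 460 higher (1.76%). The edgeR fit of all 18 libraries, in which the 6 groups share their spread, called 61 genes (0.224%), 56 lower (0.206%) and 5 higher (0.0184%). In the DESeq2 fits and the 18-library fit more genes were lower than higher in UP. Without a threshold on p, 2560 genes (10.6%) had UP and LB values that did not overlap, 1324 with UP below LB and 1236 with UP above. Among genes at least 2-fold apart in all 3 same-numbered pairs, 836 (3.45%) were lower and 470 (1.94%) higher in UP. Because no gene passed the main test, the genes below are described by their values, and "lower" and "higher" refer to the libraries measured.

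Genes of VLCFA synthesis and of the cuticle had lower means in UP than in LB for each gene named here, and some were near 0 in UP. The study placed them in a co-expression module, called pink, of 981 genes that it built on these libraries together with the other 12, so a shared tissue pattern within it is not independent evidence. Of the module, 893 genes passed the filter and 814 of them had a log2 fold change below 0, with a median of -0.97. Over all tested genes 48.3% were below 0, with a median of 0.02. UP lay wholly below LB in 415 of the 893, beside 5.46% of all tested genes. The pathway lists and the genes of highest degree below are module genes, so their counts are to be read beside those of the module. No module gene was called by edgeR. At an unadjusted p under 0.05, 275 were lower and 3 higher, where 2.77% and 2.2% of all tested genes were. Leaving out a library or replicate number moved the 275 to between 129 and 334. It was 129 without replicate number 1, where 307 of all 24732 tested genes were lower at that p. Without UP replicate 2 it was 334, beside 934 of all 25496. Without LB replicate 2 it was 165, beside 837 of all 25384, and without UP replicate 1 it was 176, beside 497 of all 25322. DESeq2 called 131 module genes lower and 0 higher, where it called 0.994% of all genes lower, and the edgeR fit of all 18 libraries called 32 lower, where it called 0.206% of all genes lower. The module summed to 23540, 31530 and 22300 CPM in the UP libraries and to 40330, 50590 and 46000 CPM in the LB libraries.

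The chain begins with KCS1 (Cula0031243), a condensing enzyme that adds the first carbons in each turn of elongation. KCS1 had 0.0768, 5.37 and 0 CPM in UP replicates 1, 2 and 3 and 52.9, 94.3 and 62.3 CPM in LB. Its highest UP value lay far under its lowest LB value, and its log2 fold change was -5.26 (standard error 1.90), with an adjusted p = 0.914 from edgeR, 0.347 with the replicate block and 0.151 in the fit of all 18 libraries. In DESeq2 the adjusted p was 0.0763, and 6.92e-10 with the block, a fit added after seeing the data. The log2 fold change was -7.39 with the block and -10.66 without UP replicate 2, since the other UP libraries held 2 counts and 0 counts. Without that library 17 of 60 named genes had a log2 fold change over 1.5 times as large, with the same sign. ECR (Cula0015187), the reductase that closes each turn, had 98.5, 189 and 92.4 CPM in UP and 212, 395 and 315 CPM in LB. The tissues did not overlap here either, but the log2 fold change was smaller at -1.26 (standard error 0.42), with an adjusted p = 0.893 from edgeR. ECR was thus present in UP in all 3 libraries, whereas KCS1 was at 2 counts, 155 counts and 0 counts. Over the 15 module genes of fatty acid elongation, all 15 had a log2 fold change below 0 (median -1.81, range -6.43 to -0.99), and 13 did not overlap, where 5.46% of all genes had UP wholly below LB. The smallest difference was that of Cula0011680, with 0.768, 0.0693 and 5.17 CPM in UP and 3.17, 6.64 and 2.27 CPM in LB, and its libraries overlapped.

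Among genes that turn VLCFAs into wax, cutin and suberin monomers, some were near 0 in UP and others were not. The wax ester synthase homolog WSD1 (Cula0011966) had 0, 2.18 and 0 CPM in UP and 32.5, 159 and 59.5 CPM in LB. The other WSD1 (Cula0018958) had 0.423, 5.58 and 0 CPM in UP against 54.0, 132 and 61.7 CPM in LB. CYP86B1 (NewGene_10946), a fatty acid hydroxylase of suberin synthesis, had 0, 1.35 and 0 CPM in UP and 37.2, 93.4 and 30.8 CPM in LB. All 3 genes thus had counts in LB throughout and, in UP, mainly in replicate 2. The log2 fold change of this CYP86B1 was -6.87 (standard error 1.86), with an adjusted p = 0.831 from edgeR, 0.314 with the block, 0.0476 in the fit of all 18 libraries and 0.00596 in DESeq2, and it became -13.52 without UP replicate 2. DCR (Cula0008822), an acyltransferase of cutin formation, was the exception among the best connected module genes, since its libraries overlapped at 132, 418 and 35.2 CPM in UP against 412, 760 and 556 CPM in LB. FAR3 (Cula0035785), a reductase that makes fatty alcohols, had 3.96, 19.3 and 20.5 CPM in UP and 31.9, 57.0 and 52.9 CPM in LB. Here replicate 3 of UP was the highest, whereas it was the lowest or at 0 for the WSD1, CYP86B1 and DCR genes just named. Cula0017116, an identifier that the study attaches to both CER2 and SLAC1, was at most 0.243 CPM in UP and 1.33 to 1.67 CPM in LB. Of the 32 cutin, suberine and wax genes of the module, 30 passed the filter and all 30 had a log2 fold change below 0 (median -3.05). UP lay wholly below LB in 24, beside 5.46% of all tested genes and 415 of the 893 tested module genes. In UP, 14 of the 30 had 0 counts in replicate 3, 7 in replicate 1 and 1 in replicate 2. None had 0 counts in any LB library, but a gene near 0 in UP passes the filter mainly through its LB libraries. The lack of 0 counts in LB is therefore largely set by the filter and is no separate observation. DESeq2 called 12 of the 30 lower and DESeq2 with the block 23, against 0.994% and 3.32% of all genes called lower in those fits. The smallest difference of the list was a log2 fold change of -0.80 for Cula0019141.

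**Figure D2:**
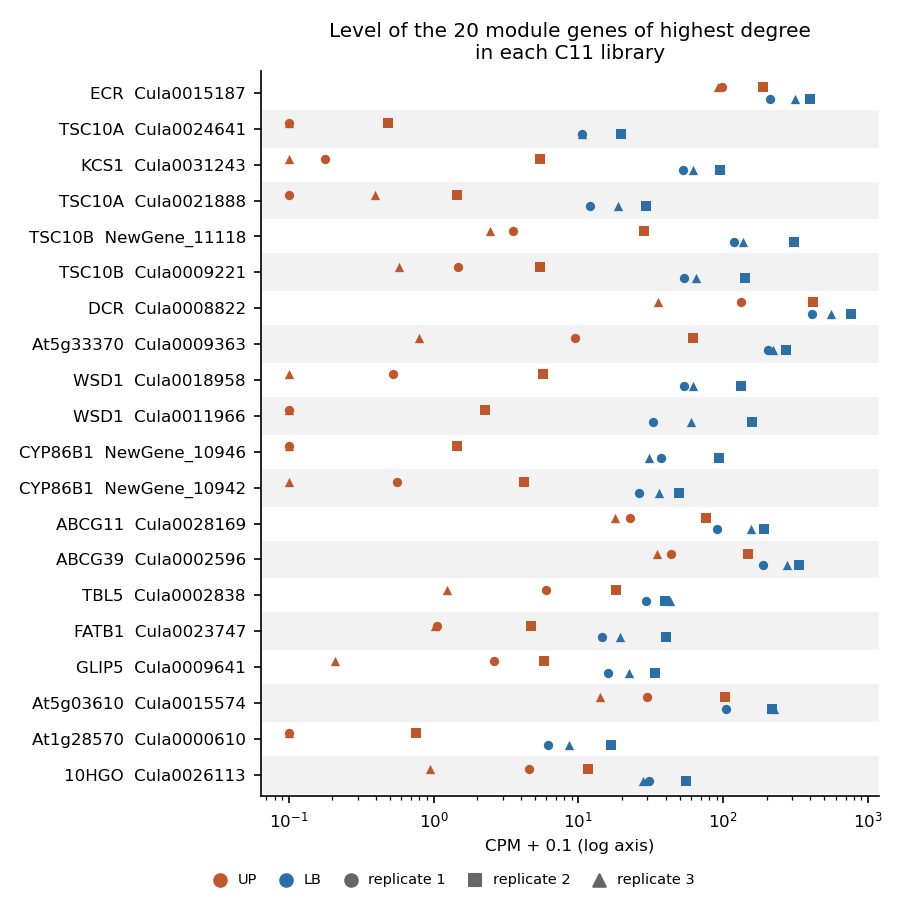
CPM + 0.1 on a log axis in each C11 library for the 20 genes of highest degree in the pink module; colours mark the tissue and shapes the replicate number. All genes but DCR have every UP library left of every LB library, and UP replicate 2 (orange square) is the highest UP value in all 20.

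Sphingolipid genes, which draw on VLCFAs for their acyl chains, showed the same order of tissues. TSC10 homologs encode the ketosphinganine reductase of long-chain base synthesis, and 6 of them carry that name. TSC10B (Cula0009221) had 1.38, 5.30 and 0.477 CPM in UP and 53.4, 142 and 64.5 CPM in LB, for a log2 fold change of -5.17 (its standard error was 1.01) and an adjusted p = 0.726 from edgeR and 0.0476 in the fit of all 18 libraries. TSC10A (Cula0024641) had 0, 0.381 and 0 CPM in UP and 10.5, 19.7 and 10.6 CPM in LB. None of the 6 overlapped between the tissues, and their log2 fold changes ran from -6.66 for this TSC10A to -1.96 for Cula0027148. Reads of near-identical homologs could have been divided between them. Of the 893 tested module genes, 814 had a log2 fold change below 0 and 415 had UP wholly below LB. Of its 17 tested sphingolipid genes 15 were below 0 (median -3.02) and 14 did not overlap, beside 48.3% and 5.46% of all tested genes. The 2 others overlapped with small differences, and Cula0031139 had 530, 390 and 469 CPM in UP and 518, 321 and 258 CPM in LB. NewGene_11119, singled out after its values were seen, had 0 counts in all 3 UP libraries and 103, 171 and 101 counts in LB, at least 122-fold lower in UP with 3 counts over the UP libraries as the floor.

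Transporters of the same network had the same order. ABCG11 (Cula0028169), which exports cutin and wax lipids in Arabidopsis, had 22.8, 76.1 and 17.9 CPM in UP and 91.1, 190 and 155 CPM in LB, and its log2 fold change was -1.89 (standard error 0.64). ABCG39 (Cula0002596) stood at 43.4, 149 and 34.6 CPM in UP and 190, 332 and 274 CPM in LB. Both transporters therefore kept a clear level in UP, and neither overlapped. The thioesterase FATB1 (Cula0023747), which releases fatty acids from the plastid, had 0.961, 4.64 and 0.918 CPM in UP and 14.4, 40.0 and 19.4 CPM in LB. Among the 20 genes of highest degree in the module, all 20 had a log2 fold change below 0 (median -3.77) and 19 did not overlap, where 5.46% of all genes had UP wholly below LB. DESeq2 called 9 of the 20 lower, and the same tool with the block called 20, beside 0.994% and 3.32% of all genes.

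The level of these genes in UP differed between its replicates. UP replicate 2 held the highest UP value in 20 of the 20 genes of highest degree, in 28 of the 30 cutin, suberine and wax genes and in 562 of the 893 module genes, against 26.2% of all tested genes. LB replicate 2 held the highest LB value in 18 of the 20 and in 22 of the 30, against 35.0% of all tested genes. As a share of the same-numbered LB library, the summed CPM of the 20 genes in UP was 20.8%, 32.3% and 8.56% for numbers 1, 2 and 3. Every share is thus well under 100%, with the lowest in replicate 3. Whether more bud or surface tissue in a UP sample played a part was not tested. Without UP replicate 2 the share of module genes with a log2 fold change below 0 was 90.9%, against 91.2% with it, and their median moved from -0.97 to -1.26. In AB of C11 the 20 genes summed to 2205, 1345 and 4512 CPM, beside 355, 1091 and 201 CPM in UP and 1708, 3380 and 2346 CPM in LB. AB means lay above UP means for 20 of the 20 genes and above LB means for 13. Over all 24235 tested genes these counts were 11557 and 12525.

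Other pathways of the module ran from strongly lower in UP to level. The plant-pathogen interaction list had 25 of 26 tested genes with a log2 fold change below 0 (median -1.93). In 19 UP lay wholly below LB, beside 5.46% of all tested genes and 415 of the 893 tested module genes. The lists can share genes: the lowest log2 fold change was -6.43 both here and in fatty acid elongation. The highest here, 1.158, was also that of MAPK signalling and of plant hormone signal transduction, so these lists are not separate. The median was -2.07 over 12 genes of MAPK signalling, -2.06 over 16 of glycerolipid metabolism, -1.80 over 9 ABC transporters and -1.36 over 21 of plant hormone signal transduction. Glycolysis and carbon metabolism, which run in every cell, had medians of -0.55 (21 genes) and -0.29 (25 genes). In β-alanine metabolism 5 of 9 genes had a log2 fold change above 0, and the median was 0.23. In brassinosteroid biosynthesis 4 of the 5 tested genes had a log2 fold change below 0 and 1 above (median -2.17). Cula0027149 had 0.0768, 0.347 and 0 CPM in UP against 8.26, 23.6 and 7.41 CPM in LB, whereas Cula0032453 had 127, 48.9 and 74.0 CPM in UP against 46.0, 23.9 and 17.3 CPM in LB. These 2 were singled out after their values were seen, and the latter was among the 3 module genes higher in UP at an unadjusted p under 0.05.

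**Figure D3:**
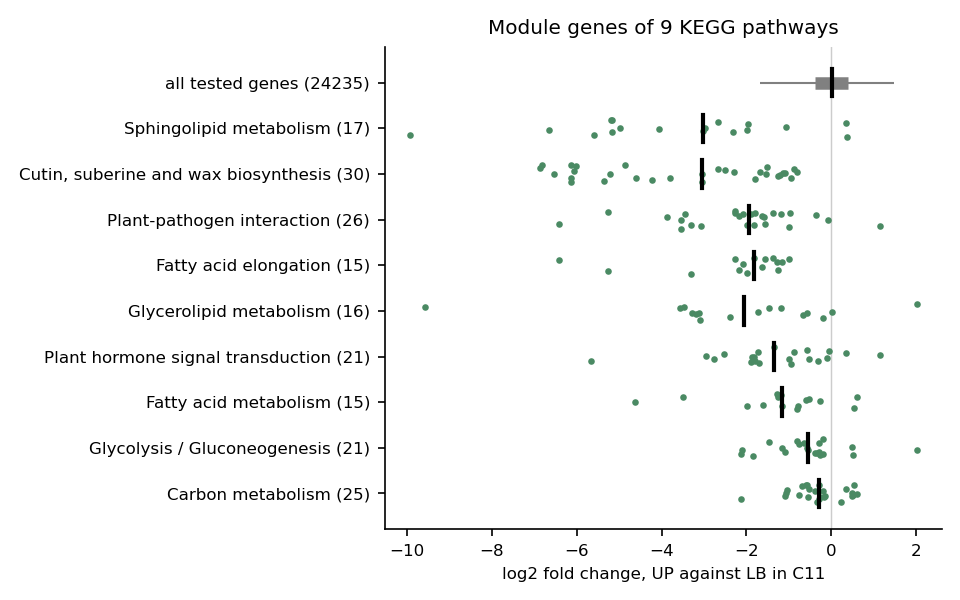
Log2 fold change of UP against LB in C11 for the tested module genes of 9 KEGG pathways (1 point per gene, number of genes in brackets), with the median as a black bar; for all 24235 tested genes the grey bar spans the percentiles 25 to 75 and the thin line the percentiles 5 to 95. Medians run from -3.05 for cutin, suberine and wax biosynthesis to -0.29 for carbon metabolism, against 0.02 for all genes. The same gene can be drawn in more than 1 pathway.

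Outside the pathway lists, 15 tested enzymes, transporters and other genes that the study names for auxin, cytokinins, strigolactones or brassinosteroids are described here. Its receptor kinases, PP2C and other genes that it ties to hormones, such as CYP709B2 and ABCC10, are given further on. They are not among the 15. UP and LB did not overlap for 2 of the 15, PARC of the pink module among them, beside 10.6% of all tested genes. The gene with UP above LB was the BAS1 homolog Cula0022875, a cytochrome P450 whose Arabidopsis counterpart inactivates brassinosteroids. It had 22.2, 13.6 and 30.8 CPM in UP and 5.16, 1.47 and 3.14 CPM in LB, so every UP library lay above every LB library. Its log2 fold change was 2.78 (standard error 0.61), with an adjusted p = 0.775 from edgeR, 0.314 with the block and 0.00304 in DESeq2. In AB of C11 it stood at 1.46, 5.10 and 0.998 CPM, in the range of LB or under it. The other BAS1 homologs overlapped, at 13.4, 13.3 and 41.2 CPM in UP and 13.8, 8.24 and 21.5 CPM in LB for Cula0030167 and at 1.69 CPM or less for Cula0034399. The remaining BAS1, Cula0015277, had no counts in either tissue. DWF4 (Cula0009250), a hydroxylase of brassinosteroid synthesis, had 8.91, 15.4 and 70.8 CPM in UP and 25.3, 0.867 and 118 CPM in LB. Replicate 3 was the highest in both tissues and the ranges overlapped widely, with a log2 fold change of -0.57 (standard error 1.48) that became 0.25 with the replicate block. CYP720B2 (Cula0019011) had 80.9, 72.5 and 7.93 CPM in UP and 58.5, 55.6 and 3.67 CPM in LB. Here replicate 3 was the lowest in both tissues, and UP was above LB in all 3 pairs, with a log2 fold change of 0.66 and an adjusted p = 0.495 from edgeR with the block.

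Strigolactone genes overlapped without exception. D27 (Cula0004245), the isomerase at the start of the pathway, had 18.7, 14.9 and 16.6 CPM in UP, where it hardly varied, and 30.2, 2.17 and 63.2 CPM in LB. CCD (Cula0015579), a carotenoid cleavage dioxygenase, had 42.6, 21.7 and 57.3 CPM in UP and 63.7, 1.93 and 145 CPM in LB. Both genes were lowest in LB replicate 2, and UP lay below LB in pairs 1 and 3 and above it in pair 2. The log2 fold changes were -0.90 (standard error 0.99) for D27 and -0.76 (standard error 1.21) for CCD, and the latter became 0.29 with the replicate block. The PDR1 homolog Cula0033669, named after the strigolactone exporter of petunia, had 247, 34.1 and 3.30 CPM in UP and 125, 6.27 and 6.67 CPM in LB. The other PDR1, Cula0032575, was nearly level at 7.61, 8.46 and 17.8 CPM in UP and 10.9, 6.204 and 15.4 CPM in LB, a log2 fold change of 0.08 (standard error 0.52). DAD2 (Cula0022349), named after the petunia strigolactone receptor, had 25.2, 37.8 and 146 CPM in UP and 43.9, 30.1 and 30.6 CPM in LB, so its higher UP mean rested on replicate 3. Without UP replicate 3 its log2 fold change moved from 1.01 to -0.15. CCD4 (Cula0029135) likewise had 108 CPM in UP replicate 3 and 3.07 and 8.42 CPM in the others, and moved from 1.08 to -1.74 without that library.

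Auxin and cytokinin genes included 2 without counts in C11. The DAO homolog Cula0007806, an auxin oxidase, had 26.3, 12.7 and 35.2 CPM in UP and 24.2, 9.71 and 22.2 CPM in LB. UP was above LB in each pair, but the tissues overlapped, with a log2 fold change of 0.42 (standard error 0.53). The second DAO homolog, Cula0018198, stayed under 5 CPM in both tissues. NewGene_11922, also named DAO, and Cula0012956, a homolog of the cytokinin glucosyltransferase UGT85A1, had 0 counts in all 6 libraries. At4g22110 (Cula0015730), listed with auxin precursors, had 8.22, 14.2 and 4.15 CPM in UP and 28.5, 9.47 and 78.2 CPM in LB, where pair 2 was in the opposite order. PARC (Cula0008351), listed by the study among the cytokinin genes, had 3.00, 2.15 and 1.80 CPM in UP and 6.42, 3.33 and 10.02 CPM in LB. Its libraries did not overlap, and its log2 fold change was -1.48 (standard error 0.56) with an adjusted p = 0.951 from edgeR. The study places PARC and At4g22110 in the pink module, where UP lay wholly below LB in 415 of the 893 tested genes.

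**Figure D4:**
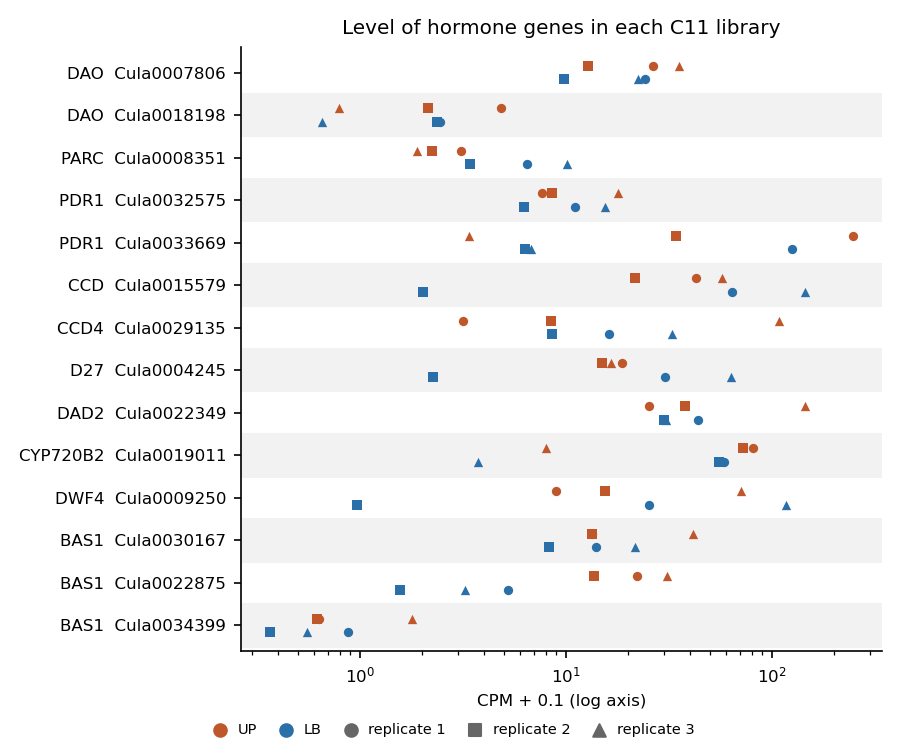
CPM + 0.1 on a log axis in each C11 library for the auxin (DAO), cytokinin (PARC), strigolactone and brassinosteroid genes that passed the filter; colours mark the tissue and shapes the replicate number. BAS1 Cula0022875 has all UP libraries right of all LB libraries and PARC has them left. CCD, D27, CCD4, DWF4, CYP720B2 and PDR1 Cula0033669 spread over more than 10-fold between replicates of a tissue.

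Of the 5 receptor-like kinases, which the study names with brassinosteroids, 1 had UP and LB values that did not overlap, beside 10.6% of all tested genes. This gene, IRK (Cula0021977), had 12.4, 27.1 and 9.73 CPM in UP and 59.4, 112 and 64.3 CPM in LB. All LB libraries lay above all UP libraries. Its log2 fold change was -2.24 (standard error 0.50), with an adjusted p = 0.775 from edgeR and 0.0108 in DESeq2. The 3 LRK10 homologs overlapped, with log2 fold changes of -0.73 (Cula0029067), -0.66 (Cula0016476) and 0.19 (Cula0032790). The lectin kinase SD25 (Cula0018899) had 84.6, 35.3 and 3.56 CPM in UP and 57.4, 27.6 and 16.1 CPM in LB, with UP above LB in pairs 1 and 2 and below it in pair 3. Among other signalling and hormone genes, the phosphatase PP2C (Cula0014378) had 10.4, 15.98 and 5.29 CPM in UP and 20.2, 52.5 and 20.1 CPM in LB, and CYP709B2 (Cula0026065) had 1.81, 6.10 and 0.807 CPM in UP and 17.8, 22.6 and 13.3 CPM in LB. Neither overlapped.

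The cell wall and phenylpropanoid genes named here were lower in UP without overlap. The study names each of them from the pink module, built on these libraries, so they are not separate from the module's pattern. The xylanase XYN5 (Cula0013545) had 1.11, 1.39 and 0.807 CPM in UP and 3.76, 9.34 and 9.68 CPM in LB, for a log2 fold change of -2.75 (its standard error was 0.56) and an adjusted p = 0.726 from edgeR and 0.000705 in DESeq2. PMEI3 (Cula0027779), an inhibitor of pectin methylesterase, had 8.14, 16.2 and 2.86 CPM in UP and 21.7, 30.6 and 46.7 CPM in LB. The MYB factor ODO1 (Cula0001466), which controls phenylpropanoid scent in petunia, had 0.653, 2.32 and 0.0734 CPM in UP and 10.1, 15.8 and 15.5 CPM in LB. DFR (Cula0029306), a reductase of flavonoid synthesis, had 3.07, 12.3 and 0.881 CPM in UP and 41.2, 64.8 and 37.0 CPM in LB. PLR_Tp2 (Cula0008127), a reductase of lignan synthesis, had 4.69, 3.47 and 0.183 CPM in UP and 21.0, 18.04 and 24.9 CPM in LB. In the module lists all 7 phenylpropanoid and all 5 flavonoid genes had log2 fold changes below 0, with medians of -1.92 and -2.16. In each list 5 genes did not overlap. Over all tested genes 48.3% were below 0 and 5.46% had UP wholly below LB. Over the 893 tested genes of the module the counts were 814 and 415.

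The same tissue contrast in C1 rests on 6 libraries that the C11 values do not use. In C1 edgeR called 1958 of 23922 genes (8.18%), 885 higher (3.7%) and 1073 lower (4.49%) in UP, so 0 genes were called in both clones by this test. Leaving out 1 C1 library gave 590 calls without UP replicate 2, 688 without LB replicate 2, 987 without UP replicate 3 and 1276 without LB replicate 3. At an unadjusted p under 0.05 edgeR had 6736 genes (28.2%), and DESeq2 called 3068 genes (10.9%) in C1. Of its 380 calls in C11, 290 (76.3%) were called the same way in C1 by DESeq2, or 9.45% of the C1 list. The genes called in C1 were then followed in C11. Of the 1958 genes 1753 passed the filter in C11, and 1563 of these (89.2%) had the same sign there. Among the 20497 genes tested in both clones and not called in C1 the share was 64.7%. An unadjusted p under 0.05 in the C1 direction was found in C11 for 534 of the 1753 (30.5%) and in the opposite direction for 2, where 4.97% of all tested genes had such a p in either direction. The UP and LB libraries of C11 did not overlap in the C1 direction for 690 of the 1753 (39.4%) and in the opposite direction for 7, beside 10.6% of all genes in either direction. For the genes lower in UP in C1 the median log2 fold change was -1.99 in C1 and -1.64 in C11, and for those higher in UP it was 1.70 and 1.01. Leaving out each C11 library or replicate number in turn kept the share with the same sign between 82.4% (without number 2) and 94.2% (without number 3). The share at an unadjusted p under 0.05 fell to 15.8% without number 1, where 2.41% of all genes had such a p, and to 19.8% without LB replicate 2, where 4.87% did. It was 47.2% with the replicate block, beside 10% of all genes.

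**Figure D5:**
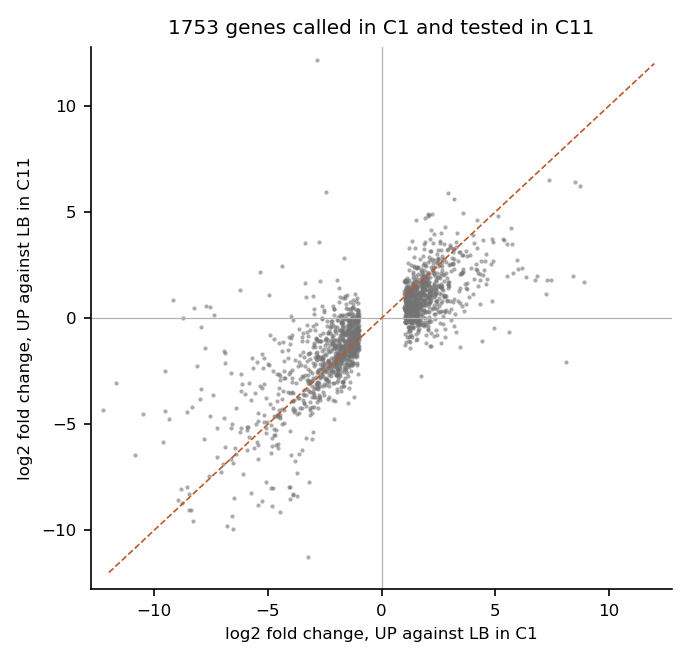
Log2 fold change of UP against LB in C11 (vertical) against that in C1 (horizontal) for the 1753 genes called in C1 by edgeR and tested in C11, 1 point per gene; the dashed line marks equal values. The points lie mostly in the lower left and upper right, where 1563 genes have the same sign in both clones.

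Of the 51 named genes tested in both clones, 39 had the same sign, beside 66.7% of all genes tested in both. In C1 33 of the 51 were called, and 31 of these had the same sign in C11. The exceptions were ABCC10 (Cula0015898), at 2.12 in C1 (edgeR, adjusted p = 0.0308) and -1.32 in C11, and PDR1 Cula0032575, at -1.04 in C1 (edgeR, adjusted p = 0.0389) and 0.08 in C11. The strigolactone genes CCD, D27, CCD4 and DAD2 had opposite signs in the clones and were called in neither. KCS1 had a log2 fold change of -4.65 in C1 (edgeR, adjusted p = 0.0112) beside -5.26 in C11, and ECR -1.15 (edgeR, adjusted p = 0.0132) beside -1.26. BAS1 Cula0022875 was at 2.23 in C1 (edgeR, adjusted p = 0.00213) beside 2.78 in C11. All 20 module genes of highest degree were called lower in UP in C1, where 4.49% of all genes were, as were 22 of the 31 cutin, suberine and wax genes tested there. Of the 916 module genes tested in C1, 302 were called lower. The module was built on all 18 libraries, those of C1 among them, so these counts are not independent of it. In the 18-library fit of C11, 49 of the 61 calls (80.3%) were called the same way in C1 and 60 had the same sign. That fit shares its spread with the C1 libraries, so the 2 sets of calls are not separate.

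The difference of the tissue effect between the clones was tested itself, as an interaction over all 18 libraries. With edgeR 3 of 27174 genes (0.011%) were called and 854 had an unadjusted p under 0.05. Leaving out C11 replicate 1, 2 or 3 in both tissues and AB gave counts of 0, 8 and 2. None of the named genes tested was called in it. PMEI3, ABCC10 and DAD2 were at an unadjusted p of 0.0169, 0.0173 and 0.0477 from edgeR, each with an adjusted p = 1. PMEI3 had means of 9.08 CPM in UP and 33.0 CPM in LB of C11 beside 28.5 and 27.6 CPM in C1. ABCC10 (Cula0015898), an ABC transporter that the study ties to auxin transport, overlapped between the tissues of C11. It was at 0.346, 0.971 and 1.505 CPM in UP and 0.430, 1.00 and 5.80 CPM in LB there. In C1 it had 2.51, 6.02 and 6.01 CPM in UP and 0.922, 0.879 and 1.497 CPM in LB, which did not.

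Some genes were counted in 1 tissue of C11 only. With at least 10 counts in each library of a tissue and 0 in all 3 of the other, 43 genes were counted in LB only and 6 in UP only. The folds over a floor of 3 counts per group were at least 12.03 to 307 for the LB genes and at least 11.6 to 158 for the UP genes. Of the 43 genes, 20 belonged to the pink module, which was built on these libraries and holds 893 of the 24235 tested genes. In C1 41 had a higher mean in LB. Of these, 25 were called there by edgeR, beside 4.49% of all tested genes called lower in UP in C1. The direction in C11 was set by the choice of the 43, so only the C1 values are separate from it. Among the 6 UP genes 3 had no counts in C1 in either tissue, 1 had a higher mean in UP there and 2 had a higher mean in LB. Their counts were unequal between replicates. Cula0027976 had 22, 13 and 428 counts and Cula0013331 had 266, 54 and 22 counts in UP replicates 1, 2 and 3, both named after their values were seen.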

How the data were processed

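RNA of UP and LB of clone C11 was compared, with 3 biological replicates per tissue. The authors mapped the reads with Hisat2, and the values they deposited are raw counts of reads for each gene, not normalized. Which program counted them, and how it treated strand and multi-mapping reads, is not given in the sources used here. Counts were fitted with edgeR 4.0.16 under R 4.3.3 (filterByExpr, TMM, glmQLFTest, Benjamini-Hochberg) on the 6 C11 libraries, and a call needed an FDR under 0.05 together with a 2-fold difference. C1 was fitted in the same way, and the difference between clones in all 18 libraries. Standard errors are the log2 fold change over the root of the F statistic. Values given as CPM were scaled with TMM over the 18 libraries. Lists were described by counts and medians, without a set test. The tests are two-sided and measure the spread between these libraries only.

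Same-numbered UP and LB libraries correlated at 0.594, 0.399 and 0.578 in C11, all over 0.1, and at 0.363, -0.0097 and 0.280 in C1. The methods do not say what the numbers stand for. The block was therefore used beside the main fit in C11. Alternatives were DESeq2 1.42.0, RLE size factors, no filter, a CPM of at least 1 in 3 libraries, glmTreat, a fit of all 18 libraries, and libraries or replicate numbers left out. DESeq2 with the block, and the following of C1 calls and of the module's signs under other settings, were added after seeing the data. Figures were drawn with matplotlib 3.10.9.

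The genes named were those the study names with an identifier, the 20 module genes of highest degree, and from 4 pathway lists (fatty acid elongation, cutin, sphingolipid and brassinosteroid genes) the tested member with the smallest log2 fold change where given, plus genes said to be singled out after their values were seen. No gene qualified under the parts of the rule that need a call in C11. Members and lists were chosen with earlier results of these data known. Sequences, coordinates and gene lengths were not used here, so levels are compared between libraries and not between genes.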

Additional observations from a re-analysis of the deposited data

Results flagged for a closer look

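The UP against LB effect differed between C11 and C1 for 3 genes in the fit of all 18 libraries (edgeR, FDR under 0.05). NewGene_8396 had 13.1, 13.0 and 13.0 CPM in UP and 17.5, 17.2 and 15.9 CPM in LB of C11, while in C1 it was at 0 in all 3 LB libraries and at 0.125, 0.300 and 0.272 CPM in UP. Its difference of log2 fold changes, C11 minus C1, was -6.16 (edgeR, adjusted p = 0.0163), a fitted value that depends on the prior count because the C1 LB libraries are at 0. Cula0030784 had 0 counts in every UP library of C11 and 278, 234 and 374 counts in LB, while C1 had 22.6, 14.1 and 11.04 CPM in UP and 9.74, 29.5 and 17.6 CPM in LB. Its fitted difference was -11.02 (edgeR, adjusted p = 0.0163), with the same dependence. The other gene had the opposite order of tissues in the clones, with 5.34, 5.51 and 0.734 CPM in UP and 18.1, 19.4 and 11.7 CPM in LB of C11, and 1.25, 0.959 and 1.05 CPM in UP and 0 in all 3 LB libraries of C1. Its fitted difference was -10.07 (edgeR, adjusted p = 0.0423), and it was called higher in UP in C1 (edgeR, adjusted p = 0.0102). The count was 0 in the fit of the 12 UP and LB libraries, and the 3 genes had an adjusted p = 0.219, 0.0782 and 0.282 there from edgeR.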

How the results depend on the processing

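Between UP and LB of C11 edgeR called 0 genes in the main fit, with RLE size factors, without a filter, with the CPM filter, with glmTreat, with the replicate block and without each library or replicate number (0 to 0). DESeq2 called 380 (108 higher, 272 lower, 131 of them module genes). The fit of all 18 libraries called 61 (5 higher, 56 lower, 32 module genes). DESeq2 with the replicate block called 1327 (460 higher, 867 lower, and 288 module genes, 284 of them lower). The cause of these differences was not tested. In C1 DESeq2 called 3068 genes, the replicate block 1756, and leaving out a library gave 590 to 2045. Same-numbered libraries of C1 did not all deviate together, and the block there is given here only. Genes called the same way in both clones were 290 with DESeq2. The difference between clones gave 45 calls with DESeq2, 0 in the 12 UP and LB libraries, 0 there with the replicate block, and 0 to 8 without a C11 replicate. With a minimum of 5 or 20 counts, 91 or 25 genes were counted in LB only and 17 or 1 in UP only.

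Of 60 named genes, 56 kept their sign with the replicate block. The 4 others turned: log2 fold changes with the block in edgeR and DESeq2 were 0.29 and 0.30 for CCD, -0.16 and -0.17 for CCD4, 0.25 and 0.27 for DWF4, and -0.33 and -0.35 for SD25. The block changed no other call of edgeR in C11. Leaving out libraries or replicate numbers turned 14 genes, with log2 fold changes from -0.33 to 0.97 (DAO Cula0018198), -0.44 to 0.40 (PDR1 Cula0032575), -1.30 to 3.93 (PDR1 Cula0033669), -1.34 to 0.30 (CCD), -1.74 to 1.69 (CCD4), -1.46 to 0.052 (D27), -0.22 to 1.60 (DAD2), -0.075 to 0.97 (CYP720B2), -1.99 to 1.27 (DWF4), -0.13 to 1.04 (BAS1 Cula0030167), -0.45 to 0.77 (LRK10 Cula0032790), -0.80 to 0.96 (SD25), -1.87 to 0.40 (ABCC10) and -3.52 to 0.14 (Cula0011680). The spread between 3 libraries per tissue limits the C11 comparison, and low counts limit genes near 0 in UP.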
